A study of Mus musculus with 282 samples.

Results

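Hematopoietic stem cells (HSCs) in which a transcript of Procr was detected were set against HSCs in which none was found. Procr encodes the endothelial protein C receptor (EPCR). The cells were chosen by their Procr level alone. A cell was called Procr-detected at 10 CPM or more (gene counts scaled to a common total per cell) and Procr-negative at 0 Procr reads, so Procr is given as a description only. Of 282 sequenced cells, 232 passed the depth filter, and of these 129 were Procr-detected and 97 Procr-negative, while 6 cells with a few reads below the threshold were left out. All cells were single bone marrow HSCs sorted by flow cytometry as LSK CD48-/lo CD150+, where LSK means that lineage markers are absent and that Sca-1 and Kit are present. EPCR was not part of the gate. The mice, 6 animals aged 12 to 22 weeks used in 2 experiments, were homozygous for rtTA at Rosa26 and for H2B-GFP at Col1a1 and had not been induced with doxycycline. The Procr-detected and the Procr-negative cells therefore shared genotype, treatment and gate, and both classes occurred in each of the 6 sets of cells described below, though in unequal numbers.

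EPCR is a transmembrane receptor that binds protein C through a fold related to MHC class I and CD1 molecules. On endothelium it presents protein C to the thrombin-thrombomodulin complex, and activated protein C bound to EPCR signals through the protease-activated receptor PAR1 (gene F2r). In mouse bone marrow, surface EPCR is a classical marker of HSCs with long-term repopulating activity, and signalling through it has been tied to retention of HSCs in the marrow.

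Procr (ENSMUSG00000027611) lies on the plus strand of chromosome 2, from 155751117 to 155755471 in mm10, and no other annotated gene overlaps it. Its exons cover 2031 bases. The promoter, shown because its gene defines the classes, was taken from RefSeq on GRCm38.p6, chr2:155750967-155751266, plus strand. It runs from 250 bases before to 50 bases after the start used for this window, which lies downstream of the gene start given above. Capitals mark a match to the AP-1 motif TGACTCA and a match to the E-box motif CANNTG:
Procr promoter: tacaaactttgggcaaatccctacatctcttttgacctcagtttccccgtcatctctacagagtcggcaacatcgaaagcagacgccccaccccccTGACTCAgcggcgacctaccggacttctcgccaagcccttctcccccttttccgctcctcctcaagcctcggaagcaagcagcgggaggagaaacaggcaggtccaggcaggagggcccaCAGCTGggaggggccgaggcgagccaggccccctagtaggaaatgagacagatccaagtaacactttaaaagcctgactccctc
With both strands searched, TGACTCA was present in 5.2% of 32817 promoter windows of this length and CANNTG in 72.3%. The ETS core GGAA matched 4 times (in 96.0% of windows). The GATA core GATA (57.9%), the RUNX letters TGTGGT (16.8%) and the CREB letters TGACGTCA (1.79%) had no match in this window. These motifs were chosen after the sequence had been seen, and a match describes letters, not a bound site.

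Most Procr-detected cells held many Procr reads. Among the 129 cells the median level was 305 CPM, with quartiles of 155 and 524 CPM and a range of 11.8 to 1437 CPM. The median cell had 86 Procr reads. The threshold fell in a sparse stretch of this distribution: the 5 lowest Procr-detected cells had 11.8, 17.8, 19.0, 19.9 and 20.3 CPM, from 4 to 7 reads, and the 6 cells left out had 3.23 to 8.80 CPM, from 1 to 3 reads.

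The labels give a library series (29 or 32) and an HSC code for each cell, and series and code together form 6 sets, such as L29 HSC-3. The labels do not tie a set to a mouse. A p-value over sets thus reflects how sets vary, and that variation may be technical. Procr was detected in 50.0% of the 46 kept cells of L29 HSC-3 (exact 95% Clopper-Pearson interval 34.9 to 65.1%), 20.9% of 43 in L29 HSC-4 (10.0 to 36.0%), 68.2% of 22 in L32 HSC-2 (45.1 to 86.1%), 81.8% of 44 in L32 HSC-3 (67.3 to 91.8%), 50.0% of 38 in L32 HSC-4 (33.4 to 66.6%) and 69.2% of 39 in L32 HSC-5 (52.4 to 83.0%). The mean was 56.7% ± 21.4 (SD, n = 6 sets). L29 HSC-4 had the lowest share and L32 HSC-3 the highest. The intervals cover counting error within a set, and a difference between sets was not tested. The median level of the Procr-detected cells varied less, from 219 CPM in L32 HSC-4 to 469 CPM in L29 HSC-4, so the set with the fewest Procr-detected cells had the highest median level, from 9 cells.

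**Figure D1:**
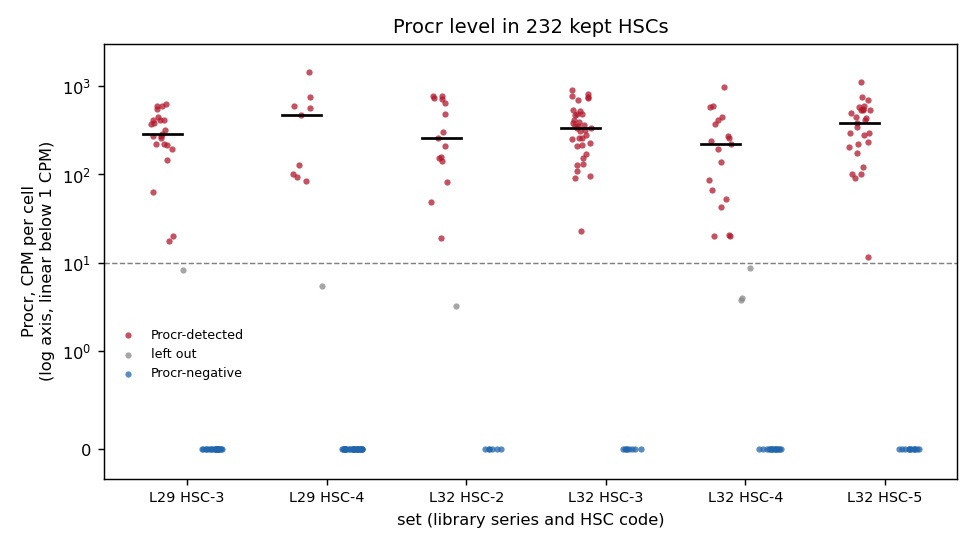
Procr in each kept cell (points, CPM on a log axis that is linear below 1 CPM) by set, with Procr-detected cells on the left of each set, the 6 cells left out in the middle and Procr-negative cells on the right. Black bars are the medians of Procr-detected cells, 219 to 469 CPM, and the dashed line is the 10 CPM threshold.

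Kept cells had 116009 to 1680714 gene counts (median 280096) and a median of 5222 genes, so 10 CPM corresponded to 2.8 reads in the median cell, and Procr-negative means not detected at that depth. No molecular identifiers were used, and intervals cover counting error only. In 38 near-empty wells of codes HSC-2 and HSC-3, which fell under the filter, 8 wells held Procr reads, 66 reads in sum and at most 51 in a well. All 8 were at 10 CPM or more, the level that defines a Procr-detected cell. The 38 wells held 616795 gene reads in sum, so at their mean depth any Procr read lay above 10 CPM. The 8 wells at that level thus follow from low depth. They do not show how often free RNA reaches 10 CPM in kept cells. The summed Procr level was 298 CPM in 66 kept cells from these sets and 107 CPM in the near-empty wells, and the mean was 110 reads per kept cell and 1.74 per near-empty well. Of the 51 Procr-detected cells in those sets, 38 had more reads than the highest near-empty well. How many low-level calls come from free RNA was not tested.

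No measure of depth, RNA content or RNA quality passed the exact sign-flip permutation test between Procr-detected and Procr-negative cells. The smallest p that 6 sets can give there is 0.031, so none could pass unless most of the 4 measures shared it. Median genes detected were higher in Procr-detected cells in 4 of 6 sets (mean difference 249 ± 469 genes, SD, exact two-sided sign-flip permutation test, adjusted p = 0.75 over 4 measures), by 94.2 genes on average without L29 HSC-4. L29 HSC-4 stood apart. There, Procr-detected cells had a median of 5098 genes, 3.67% mitochondrial counts and 25.7 gene reads per spike-in read, and Procr-negative cells had 4078 genes, 6.88% and 12.8. Its 33 Procr-negative cells are the largest Procr-negative set. Genes detected was a covariate in the limma comparisons of genes. It was not in the DESeq2 and edgeR fits on summed counts quoted below. With it added to edgeR, none passed and 2.33% of genes had an unadjusted p under 0.05.

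Each gene's level, log2(CPM/10 + 1), was compared between the classes within each set, adjusted for plate and genes detected, and the 6 within-set differences were tested in limma. On this scale 0 means no reads. Of 9698 genes tested, none passed an adjusted p of 0.05 in either direction (0% of genes higher, 0% lower), and none passed without L29 HSC-4. At an unadjusted p under 0.05 there were 719 genes (7.41%), 312 higher (3.22%) and 407 lower (4.2%) in Procr-detected cells. Differences had the same sign in 6 of 6 sets for 163 genes on the higher side (1.68%) and 244 on the lower side (2.52%). The set means of the classes did not overlap for 10 genes with higher Procr-detected means (0.103%) and 5 with lower ones (0.0516%). DESeq2 on counts summed per set and class called 39 genes, 29 higher (0.324%) and 10 lower (0.112%) of 8945 genes with an adjusted p. In edgeR on the same sums none passed, with 344 genes at an unadjusted p under 0.05 (3.55%). In data simulated for this comparison with 4-fold changes, limma recovered 40% of raised and 23% of lowered genes, so even large differences could be missed. The genes described next are therefore given by their values. Each difference is Procr-detected minus Procr-negative, a weighted mean ± SD over the sets.

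The genes with the smallest unadjusted p on the higher side were led by Rsrp1, an arginine- and serine-rich protein gene (chromosome 4, 134923592 to 134927671). Its set means were 5.41, 7.49 and 7.79 (lowest, median, highest) in Procr-detected cells and 3.60, 6.98 and 7.18 in Procr-negative cells. The ranges overlapped, yet the difference was positive in 6 of 6 sets (0.62 ± 0.21, adjusted p = 0.310 in limma). Gimap6, a GTPase of a family known for lymphocyte survival, had set means of 4.62, 5.71 and 6.82 in Procr-detected cells and 3.21, 3.84 and 4.98 in Procr-negative cells. Its difference was 1.35 ± 0.86, positive in 6 of 6 sets (adjusted p = 0.619 in limma). Ndufa10, a complex I subunit, was present at 10 CPM or more in 52.2 to 79.0% of Procr-detected cells per set and in 16.7 to 50.0% of Procr-negative cells, and its set means did not overlap (2.79 to 3.73 against 0.84 to 2.61; difference 1.07 ± 0.55). DESeq2 also called it, with a log2 fold change of 1.20 and an adjusted p of 0.0306.

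Among the other 7 genes on that side were Txnip, the thioredoxin-interacting protein that restrains glucose uptake (0.58 ± 0.42), Ier3, a stress-induced survival gene (0.86 ± 0.12), and Ltb, the lymphotoxin beta gene (1.3 ± 0.76). The integrin gene Itgb7 (0.51 ± 0.16), Smim24 (0.87 ± 0.26), the mitochondrial RNA-binding gene Fastk (0.81 ± 0.41) and Fxr2, a relative of the fragile X gene (0.50 ± 0.26), followed. Each of the 7 was positive in 6 of 6 sets with an adjusted p of 0.619 in limma. Ier3 was among the genes DESeq2 called (adjusted p = 0.0369): it was present in 20.0 to 61.1% of Procr-detected cells per set and 0 to 37.5% of Procr-negative cells.

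On the lower side the leading genes included several that work in DNA replication, nuclear transport and splicing. Tipin, a replication fork protein (chromosome 9, 64281581 to 64305424), was present in 0, 23.8 and 31.6% of Procr-detected cells (lowest, median and highest set) and in 24.2, 45.8 and 56.2% of Procr-negative cells. Its set means did not overlap, with 0 to 1.20 in Procr-detected and 1.23 to 2.49 in Procr-negative cells (difference -1.19 ± 0.50, negative in 6 of 6 sets, adjusted p = 0.619 in limma). Ran, the GTPase of nuclear transport, had set means of 3.73, 4.03 and 4.21 in Procr-detected cells and 3.89, 4.90 and 5.32 in Procr-negative cells (-0.88 ± 0.39, negative in 6 of 6). The ranges overlapped, and the Procr-detected median of 4.03 lay within the Procr-negative range.

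Tmem161b had non-overlapping set means of 0 to 0.48 in Procr-detected and 0.49 to 1.06 in Procr-negative cells (-0.64 ± 0.13), though it is a sparse gene, present in at most 10.5% of Procr-detected cells of a set. The splicing factor Sf3b2 (-1.05 ± 0.42), the microtubule-end gene Mapre1 (-0.81 ± 0.25) and the galectin gene Lgals9 (-0.87 ± 0.55) were negative in 6 of 6 sets, as was Jpt2 (-1.12 ± 0.56). DESeq2 called Jpt2 with an adjusted p of 3.81e-05. Nup210, a nuclear pore gene, was negative in 5 of 6 sets (-1.07 ± 0.65). Ndufa4, a respiratory chain gene, was negative in 6 of 6 (-0.74 ± 0.14). Its summed level was 317 CPM among kept cells of codes HSC-2 and HSC-3 in series 32 and 820 CPM in the near-empty wells, and the part of free RNA in its difference was not tested.

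**Figure D2:**
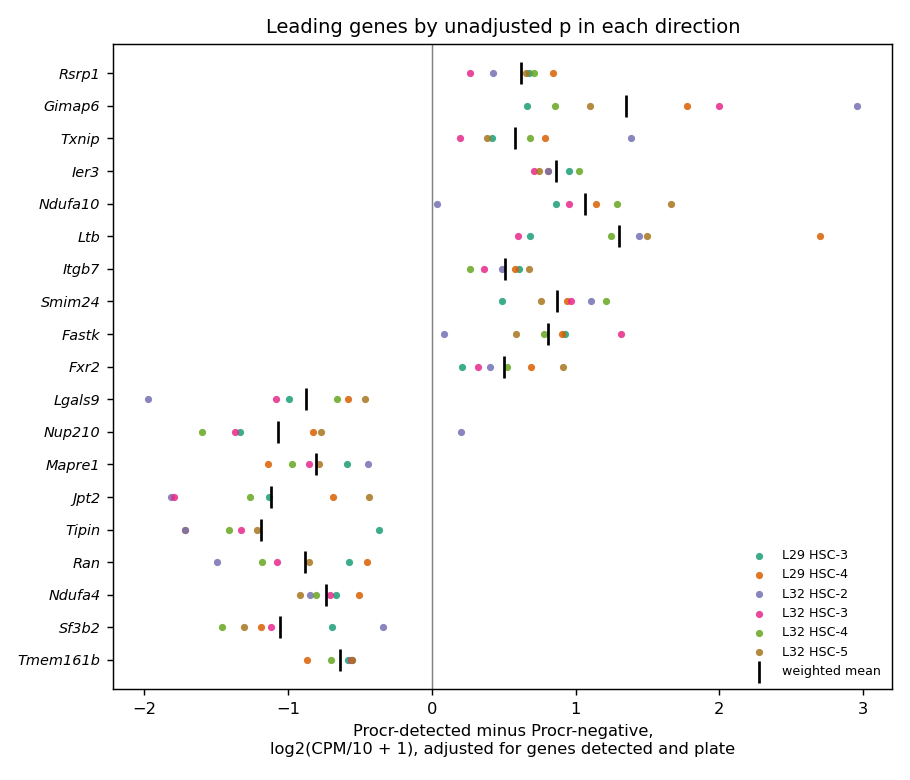
Within-set differences (points, 1 colour per set) of the genes described above, from the 10 with the smallest unadjusted p on each side, Procr-detected minus Procr-negative on the log2(CPM/10 + 1) scale, with the weighted mean as a black bar. None passed the adjusted threshold in limma. All points lie on the side of their mean except Nup210 in L32 HSC-2.

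Genes of long-term HSCs stood mostly on the higher side. Of 24 listed genes 18 were tested and 14 had a positive difference, with a median of 0.26 against -0.02 over all genes tested, where 46.9% were positive and 53.1% negative. Without L29 HSC-4 the list median was 0.26, and set medians were positive in 5 of 6 sets. Over 17 other settings (covariates, thresholds, scaling, thinning, set weights, each set left out, each series alone) it ranged from 0.13 without L29 HSC-3 to 0.37 in series 29 alone. At an unadjusted p under 0.05, 6 of the 18 were higher and none lower, against 3.22% of all genes higher and 4.2% lower. At any p, 6 of the 18 had a higher summed CPM in near-empty wells than among kept cells from the same sets. Over all 9698 genes tested this held for 2061, and the part of free RNA was not tested. Mllt3, a super elongation complex gene known to sustain the self-renewal of human HSCs, was detected in 59.3, 75.7 and 91.3% of Procr-detected cells and 37.5, 50.0 and 66.7% of Procr-negative cells (lowest, median and highest set). Its share was higher in 6 of 6 sets, by 24.7 ± 14.9 percentage points (exact two-sided sign-flip permutation test, p = 0.031, the smallest 6 sets can give, adjusted p = 0.208 over 20 markers). With every cell thinned to 100000 reads and 1 read taken as detection it was still higher in 6 of 6.

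On the level scale Mllt3 differed by 1.20 ± 0.98 (5 of 6 sets positive). Ltb, the leading gene named above, is also on this list. Trim47, a ubiquitin ligase gene listed with long-term HSCs, differed by 0.99 ± 1.18 (6 of 6), and Sult1a1, a sulfotransferase gene named after its value was seen, by 0.70 ± 0.87 (6 of 6; 0.46 without L29 HSC-4). Other members of the list did not follow. The 4 negative ones were Hoxb5 (-0.31 ± 0.61), Palld (-0.08 ± 0.61), Ctnnal1 (-0.08 ± 0.52) and Gda (-0.04 ± 0.99), and Fgd5 was at 0.15 ± 0.63 (4 of 6 sets positive). Each list was drawn up with earlier results of these cells known, so a list median describes these cells and is not independent support.

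The HSC identity genes were more mixed. Of 26, all tested, 16 were positive and the median was 0.13, from 0.01 in series 29 alone to 0.19 with plate as the only covariate. At an unadjusted p under 0.05, 5 were higher (against 3.22% of all genes) and 1 lower (against 4.2%). Hlf, a PAR bZIP transcription factor of primitive HSCs, was detected in 66.7, 82.1 and 87.0% of Procr-detected cells and in 41.7, 65.2 and 77.3% of Procr-negative cells (lowest, median and highest set). The share of cells with Hlf was higher in 6 of 6 sets, by 19.0 ± 13.9 percentage points (exact permutation p = 0.031, adjusted p = 0.208). In thinned cells it was higher in 5 of 6 sets, by 18.0 points, a count of sets at which this p cannot be reached. On the level scale Hlf had the largest difference of the list, 1.17 ± 0.82 (6 of 6 sets positive), with 0.46 in series 29 and 1.64 in series 32. Mecom, which encodes the zinc finger factor EVI1, differed by 0.67 ± 0.73 (5 of 6 sets positive; 0.42 without L29 HSC-3), and Runx1 and Egr1, named after their values were seen, by 0.72 ± 0.86 (5 of 6) and 0.43 ± 0.38 (6 of 6). Prdm16, an EVI1-related gene required for HSC maintenance, went the other way (-0.75 ± 0.44, negative in 6 of 6 sets). It was present in 11.1, 20.6 and 33.3% of Procr-detected cells and 18.2, 34.4 and 62.5% of Procr-negative cells.

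Ly6a, which encodes the gate antigen Sca-1, differed by 1.89 in series 29 and by 0.10 in series 32. Without L29 HSC-3 the difference over the remaining sets was 0.50, against 0.81 over all 6. The difference between the series was not past the threshold (adjusted p = 0.852 in limma). Kit, the other gate gene, was detected in 82.9% of Procr-detected and 85.6% of Procr-negative cells, lower in 6 of 6 sets (-7.12 ± 4.51 points, exact permutation p = 0.031, adjusted p = 0.208). In thinned cells Kit was 86.0% in Procr-detected and 85.6% in Procr-negative cells over all sets. Within sets its thinned difference averaged -4.7 points and was positive in 2 of 6 sets. Slamf1, which encodes CD150, was found in 21.7% of Procr-detected and 17.5% of Procr-negative cells, higher in 3 of 6 sets, by 5.37 points on average and by -0.22 without L32 HSC-2.

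Of the markers that subdivide the HSC gate, Vwf, a marker of platelet-biased HSCs, was detected in 31.8% of Procr-detected and 20.6% of Procr-negative cells. The difference was 9.57 ± 10.7 points, higher in 4 and lower in 1 of 6 sets (exact permutation adjusted p = 0.357). Cd34, a surface antigen that long-term HSCs of adult mice carry little of, was in 47.3% of Procr-detected and 54.6% of Procr-negative cells (-13.4 ± 25.3 points, lower in 4 of 6 sets, exact permutation adjusted p = 0.556). Cd34 was lower in 1 of 2 sets in series 29 and in 3 of 4 in series 32, and the difference was -21.6 points without L29 HSC-4. The imprinted growth restrainer Ndn was in 46.5% of Procr-detected and 29.9% of Procr-negative cells (5 of 6 sets higher, by 9.58 points on average and by 14.8 without L32 HSC-5), and the angiopoietin receptor Tek in 14.7% and 9.28% (5 of 6). Of the 20 markers none passed the adjusted threshold, and 3 (Hlf, Mllt3 and Kit) had the unadjusted exact permutation p of 0.031. That is the smallest p 6 sets can give, so none could pass unless most of the 20 markers shared it.

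**Figure D3:**
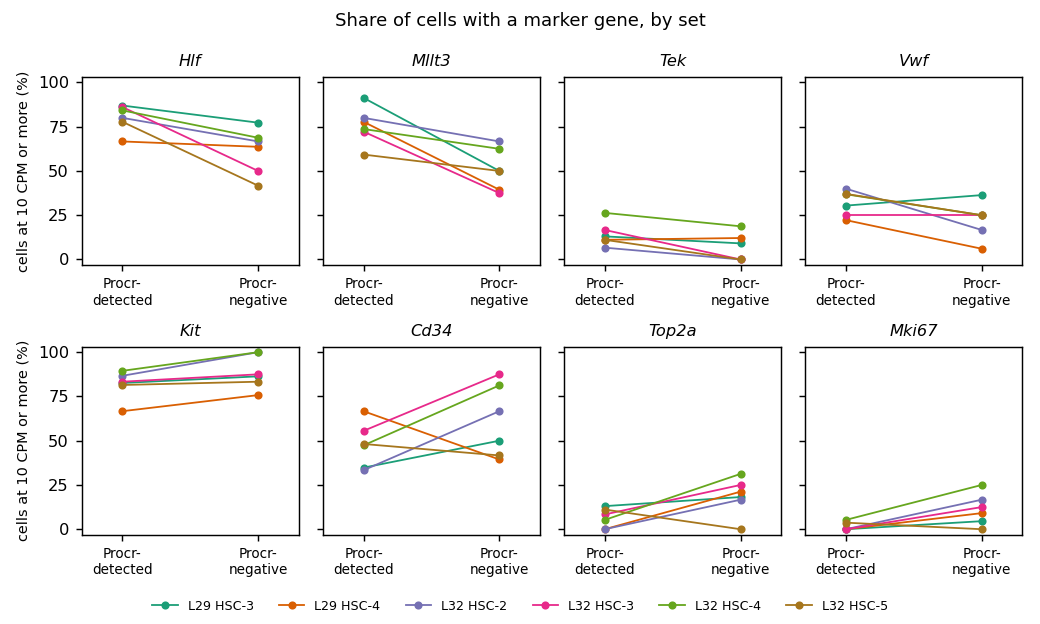
Share of cells (percent) at 10 CPM or more for 8 marker genes in Procr-detected (left) and Procr-negative (right) cells, with a line for each of the 6 sets. For Hlf and Mllt3 the left point is above the right point in 6 of 6 sets, and for Top2a and Mki67 it is below in 5 of 6.

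The replication genes were the group farthest to the lower side. Of 31 S phase genes 25 were tested, and 24 had a negative difference with a median of -0.55, against -0.02 for all genes. At an unadjusted p under 0.05, 12 of the 25 were lower (against 4.2% of all genes) and none higher (against 3.22%), and 6 were lower in 6 of 6 sets (against 2.52%). Among the 6 were Tipin, the clamp loader gene Rfc2 (-0.80 ± 1.31; -0.53 without L32 HSC-2), and, named after their values were seen, Rrm1 of ribonucleotide reductase (-0.79 ± 0.68) and the helicase genes Mcm2 (-0.79 ± 0.57) and Mcm3 (-0.55 ± 0.31). The Rfc2 difference ran from -3.41 in L32 HSC-2 to -0.00054 in L32 HSC-5, so its sign count includes a set with almost no difference. DESeq2 called Rrm1 with an adjusted p of 0.00361. The primase gene Prim1 differed by -0.86 ± 0.95 (5 of 6 sets negative).

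The S phase median was -1.42 in L32 HSC-2, -0.82 in L29 HSC-4, -0.59 in L32 HSC-4 and -0.41 in L29 HSC-3, but 0.00 in L32 HSC-5 and 0.02 in L32 HSC-3. It was thus clearly below 0 in 4 sets and near 0 in the other 2. Without L29 HSC-4 the overall median was -0.51, and it was -0.73 in series 29 alone and -0.42 in series 32 alone. With mitochondrial share and spike-in ratio added as covariates it was -0.30, and with plate alone -0.35.

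A count of S phase genes per cell did not show the same order in all sets. The median was 6 of the 31 genes in Procr-detected and 6 in Procr-negative cells, and 91 of 129 Procr-detected cells (70.5%, exact interval 61.9 to 78.2%) against 54 of 97 Procr-negative cells (55.7%, 45.2 to 65.8%) had 5 or more. The highest cell had 27 genes in the Procr-detected class and 31 in the Procr-negative class. By set, the mean number was lower in Procr-detected cells in 5 of 6, with 8.11 against 5.83 in L32 HSC-5 as the exception. The share with 5 or more, in contrast, was higher in Procr-detected cells in 4 of 6 sets (15 of 23 against 14 of 22 cells in L29 HSC-3, 10 of 15 against 3 of 6 in L32 HSC-2, 15 of 19 against 12 of 16 in L32 HSC-4, 19 of 27 against 6 of 12 in L32 HSC-5). It was lower in the other 2 (2 of 9 against 12 of 33 in L29 HSC-4, 30 of 36 against 7 of 8 in L32 HSC-3). The mean and the share with 5 or more thus ran in opposite directions in L29 HSC-3, L32 HSC-2 and L32 HSC-4. They ran in the same direction in the other sets.

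Mitotic cells were few in both classes. Top2a, the DNA topoisomerase of dividing cells, was present in 10 of 129 Procr-detected cells (7.75%) and 19 of 97 Procr-negative cells (19.6%), lower in 5 of 6 sets (-12.4 ± 13.4 points, exact permutation adjusted p = 0.312). DESeq2 called it with an adjusted p of 0.0267. Mki67, the proliferation antigen Ki-67, was in 2 of 129 (1.55%) and 10 of 97 (10.3%), lower in 5 of 6 sets (-9.81 ± 8.53 points, exact permutation adjusted p = 0.25). Neither marker was past the threshold, which the permutation test could give only if most of the 20 markers shared its smallest p. At least 5 of 30 G2/M genes were present in 5 of 129 Procr-detected cells (3.88%, exact interval 1.27 to 8.81%). The same held for 8 of 97 Procr-negative cells (8.25%, 3.63 to 15.6%). These intervals pool cells over sets and cover counting error only, so they do not test the class difference. The most G2/M genes in a cell was 7 in the Procr-detected class and 19 in the Procr-negative class. Of the 5 G2/M genes dense enough to test, 4 were negative (median -0.35, and -0.15 with mitochondrial share and spike-in ratio as covariates).

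Growth genes also lay on the lower side. Of 24 growth and nucleolar genes 20 were negative (median -0.29, from -0.41 without L29 HSC-4 to -0.14 in series 29 alone), with 6 lower (against 4.2% of all genes) and none higher (against 3.22%) at an unadjusted p under 0.05. Ran (above) was negative in 6 of 6 sets, Srm, the spermidine synthase gene, in 4 of 6 (-1.16 ± 1.09) and Nhp2, a snoRNP protein gene, in 5 of 6 (-0.77 ± 0.59). DESeq2 called Srm (adjusted p = 0.00845). Of 22 nuclear genes of oxidative phosphorylation 15 were negative (median -0.21, and -0.10 with plate as the only covariate). In the near-empty wells 8 of the 22 had a higher summed CPM than among kept cells from the same sets. Over all 9698 genes tested this held for 2061. Cox6c, a complex IV subunit, differed by -0.63 ± 0.96 and was among the 8, with 223 CPM among those kept cells and 1326 CPM in near-empty wells. The part of free RNA in these differences was not tested.

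Of 18 glycolysis genes 13 were negative (median -0.12, from -0.20 without L29 HSC-3 to -0.05 with plate alone). Mif, a cytokine gene listed with them, had set means of 3.18 to 3.64 in Procr-detected and 3.67 to 4.38 in Procr-negative cells, with no overlap (-0.64 ± 0.45, 5 of 6 sets negative after adjustment for genes detected). Pdk1, the kinase that holds back pyruvate dehydrogenase, differed by -0.91 ± 0.80 (5 of 6 negative). Of 11 tested quiescence genes 6 were positive (median 0.03, from -0.03 without L32 HSC-3 to 0.29 in series 29 alone), with Txnip the farthest to the higher side.

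**Figure D4:**
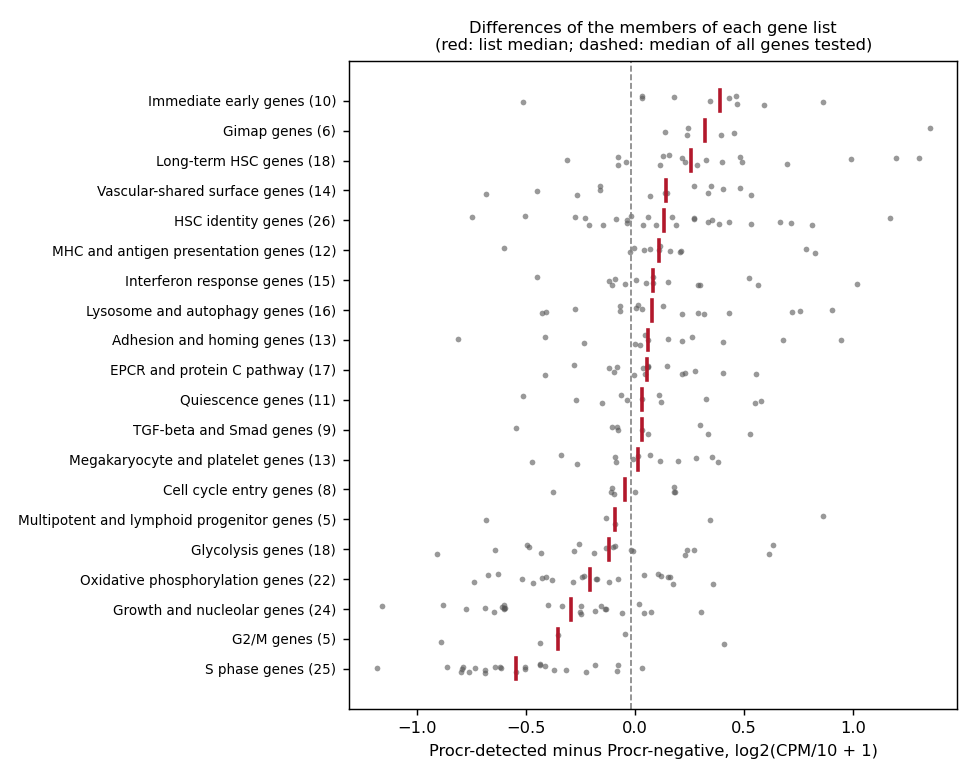
Differences of all tested members (points) of the 20 gene lists with 5 or more tested members, Procr-detected minus Procr-negative on the log2(CPM/10 + 1) scale, with the list median in red and the number tested in brackets. The S phase median (-0.55) is the lowest and the immediate early median (0.39) the highest, against -0.02 for all genes (dashed).

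Stress, immune and surface genes had mixed values with several members on the higher side. Of 10 tested immediate early genes 9 were positive (median 0.39, 0.25 without L29 HSC-4 and 0.22 without L32 HSC-5), but set medians ranged from -0.01 in L32 HSC-4 to 0.83 in L32 HSC-5. All 6 tested Gimap genes were positive (median 0.32, with 0.13 in series 29 and 0.50 in series 32), and Gimap6 was the only member below an unadjusted p of 0.05. The summed level of Gimap5 was 428 CPM in near-empty wells and 168 CPM among kept cells from the same sets. For Gimap6 it was 488 and 712.5 CPM, and the part of free RNA was not tested. Of 15 interferon genes 10 were positive (median 0.08, 0.12 without L29 HSC-4, 0.02 with mitochondrial share and spike-in ratio as covariates and 0.00 in series 29 alone), and Irf1, an interferon-induced transcription factor, was present in 26.1, 51.1 and 63.2% of Procr-detected cells and 12.1, 17.4 and 50.0% of Procr-negative cells (1.02 ± 0.80, 6 of 6 positive). Bst2, which encodes tetherin, was positive in 6 of 6 (0.56 ± 0.49).

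Of 12 MHC genes 9 were positive (median 0.11, with 0.18 in series 29 and 0.04 in series 32), with the class II chaperone Cd74 at 0.79 ± 0.56 (6 of 6) and the peptide transporter Tap1 at 0.83 ± 0.88 (5 of 6), while the class II gene H2-Ab1 was at -0.60 ± 0.85 (4 of 6 negative). Its sign was positive in edgeR and DESeq2 on summed counts. Of 16 lysosome and autophagy genes 11 were positive (median 0.08, 0.13 without L29 HSC-4, from 0.03 without L32 HSC-4 to 0.22 in series 32 alone), with the autophagy receptor Sqstm1 at 0.90 ± 1.07 (0.50 without L29 HSC-3) and the proteases Ctsa at 0.75 ± 1.13 and Ctsl at 0.72 ± 1.17. Reads from near-identical members of the Gimap and H2 families, Ly6a, and genes with many processed copies such as Ran and Mif may have been split or shared in counting.

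Among 13 tested adhesion genes 10 were positive (median 0.06, 0.03 without L29 HSC-4, from -0.01 without L32 HSC-3 to 0.23 without L32 HSC-5). Itga6, the laminin receptor subunit, was positive in 6 of 6 sets (0.68 ± 0.70) and the tetraspanin gene Cd82, which marks dormant HSCs, in 5 of 6 (0.95 ± 0.86). The summed level of Itga6 was 240 CPM in near-empty wells and 99.8 CPM among kept cells from the same sets. For Cd82 it was 3.24 and 86.7 CPM, and the part of free RNA was not tested. Selplg, the P-selectin ligand, was negative in 6 of 6 (-0.81 ± 0.48). Itga2b, the platelet integrin CD41, was also negative in 6 of 6 (-0.47 ± 0.25), whereas the 13 tested megakaryocyte and platelet genes had a median of 0.01 with 7 positive (-0.06 without L32 HSC-2 to 0.15 with sets weighted equally). In the TGF-beta list 5 of 9 genes were positive, the inhibitor Smad7 at 0.53 ± 0.51 (0.32 without L32 HSC-4) and the BMP effector Smad5 at -0.54 ± 0.57 (-0.36 without L29 HSC-4).

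No gene of the protein C pathway list passed the test. Of 30 genes 17 were dense enough to test. Signalling members such as Rac2 (88.9% of the 226 cells), Cdc42 (86.3%) and Rhoa (74.8%), all small GTPases, were found in most cells, and 13 genes, most of them of coagulation and fibrinolysis, were too sparse. Of the 17, 11 were positive, the median was 0.05 (from -0.05 without L32 HSC-3 to 0.12 with plate alone) and none had an unadjusted p under 0.05. Proc (protein C), F3 (tissue factor) and F2rl1 (PAR2) were at 10 CPM in 0 of 226 cells, which, with 3 cells taken as the limit of a count of 0, allows a share of up to 1.33% of cells with such a level. Thbd, which encodes thrombomodulin, was found in 7 cells (2.33% of Procr-detected and 4.12% of Procr-negative cells). F2r, the PAR1 gene through which activated protein C signals, was in 43.4% of Procr-detected and 30.9% of Procr-negative cells, with a within-set difference of 0.23 ± 1.27 that was positive in 3 of 6 sets. The largest differences were those of the GTPase gene Rac1 (0.56 ± 0.81, 5 of 6 positive), the integrin chain Itgb1 (-0.41 ± 0.80, 5 of 6 negative) and the tissue factor pathway inhibitor Tfpi (0.40 ± 0.73, 4 of 6 positive). Each was smaller than its SD over sets. Leaving out a set took Rac1 down to 0.28 (L32 HSC-4), Tfpi to 0.20 (L29 HSC-4) and Itgb1 to -0.09 (L29 HSC-3).

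EPCR is also an endothelial protein, and markers of other cells were examined in both classes. Of the defining endothelial genes, Cdh5 and Mmrn2 reached 10 CPM in none of the 226 cells. Clec14a was present in 15 Procr-detected and 4 Procr-negative cells, Kdr in 6 and 0, Plvap in 3 and 0, Flt1 in 0 and 1 and Pecam1, which HSCs also express, in 27 and 25. Of 14 tested genes shared by HSCs and vessels 9 were positive (median 0.14, 0.08 without L32 HSC-3 and 0.27 in series 29 alone). The largest difference was that of Cd34, at -0.68 ± 1.26 (5 of 6 sets negative; -1.03 without L29 HSC-4 and -0.41 without L32 HSC-3). Esam was at 0.53 ± 0.87 (0.20 without L29 HSC-3) and Tie1 at 0.48 ± 0.51. In near-empty wells Esam had a summed level of 668 CPM, against 254 CPM among kept cells from the same sets. For Tie1 the levels were 38.9 and 197 CPM, and the part of free RNA was not tested. The summed level of the 22-gene vascular list had set medians of 2172 to 2726 CPM in Procr-detected and 1434 to 3391 CPM in Procr-negative cells, higher in 5 of 6 sets.

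For the 16 myeloid genes the set medians of the summed level were 852 to 1228 CPM in Procr-detected and 597 to 1398 CPM in Procr-negative cells, with no read of the granule genes Elane and Ctsg. For the 16 erythroid genes they were 1194 to 2518 CPM in Procr-detected and 1089 to 2325 CPM in Procr-negative cells, with no read of Car1. Much of the erythroid level was Car2, present in a mean of 94.5% of Procr-detected and 98.1% of Procr-negative cells over the sets. Among kept cells of codes HSC-2 and HSC-3 in series 32, Car2 had 1567 CPM, Hbb-bt 10.1 CPM and Hbb-bs 4.22 CPM. For the 16 B, T, NK and mast cell genes the set medians were 0 to 93.1 CPM in Procr-detected and 0 to 222 CPM in Procr-negative cells, higher in 1 of 6 sets. The ranges of the classes overlapped for each of these lists, and none of their 8 tested members had an unadjusted p under 0.05. For 15 multipotent and lymphoid progenitor genes the set medians were 514 to 1149 CPM in Procr-detected and 497 to 1085 CPM in Procr-negative cells. Of the 5 tested members of this list 2 were positive and 3 negative. Only Lsp1 had an unadjusted p under 0.05 in limma (0.86 ± 1.14, 5 of 6 sets positive). The part of other cells in the differences above was not tested.

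Among the Procr-detected cells, genes were compared with the level of Procr in the 5 sets with at least 10 such cells (120 cells), as partial rank correlations within each set given plate, genes detected and total counts. None of the 9698 genes passed (0%), and 542 had an unadjusted p under 0.05 (5.59%). On the positive side the smallest p belonged to Smim26 (mean correlation 0.34 ± 0.11, SD over 5 sets), Eng, the TGF-beta coreceptor endoglin (0.34 ± 0.10), Mast4 (0.34 ± 0.24), Fuz (0.33 ± 0.25) and the ribosomal gene Rpl4 (0.30 ± 0.15), each with an adjusted p of 0.821 in limma. Eng was positive in 5 of 5 sets, from 0.23 to 0.48. On the negative side were Clpx (-0.33 ± 0.11), Daxx (-0.30 ± 0.20), Golt1b (-0.29 ± 0.21), Lima1 (-0.29 ± 0.14) and Zfp992 (-0.29 ± 0.24), each negative in 5 of 5 (adjusted p from 0.821 to 0.85 in limma). None of these 10 was among the genes named above as leading the comparison of classes. Of those leaders, Fastk had a mean correlation of 0.21 ± 0.24 with the Procr level (4 of 5 sets positive, adjusted p = 0.872 in limma), and Rsrp1 one of 0.12 ± 0.17 (5 of 5 positive). Nup210 had -0.20 ± 0.18 (4 of 5 negative), Tipin -0.10 ± 0.13 (5 of 5 negative) and Gimap6 0.00 ± 0.32. Other leaders had a mean correlation of the sign opposite to their class difference. On the lower side these were Sf3b2 (0.10 ± 0.32), Tmem161b (0.10 ± 0.11), Mapre1 (0.07 ± 0.17) and Jpt2 (0.02 ± 0.29). On the higher side they were Fxr2 (-0.08 ± 0.24), Ltb (-0.03 ± 0.19) and Ier3 (-0.02 ± 0.10).

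The 2 library series were compared directly. No gene's class difference itself differed between series 29 (2 sets) and series 32 (4 sets) at an adjusted p of 0.05 in limma (0%), and 553 of 9698 genes had an unadjusted p under 0.05 (5.7%). The genes with the smallest p were Eif3h, a translation initiation gene (1.18 in series 29 and -0.20 in series 32), Smim7 (1.07 and -1.47), Ly6a (above), the proteasome gene Psma1 (0.10 and -1.39) and the actin-branching gene Arpc1b (1.90 and 0.13) in the positive direction. In the negative direction they were Smad2 (-0.51 and 0.83), Carmil2 (-0.64 and 0.23), Fbxo38 (-0.96 and 0.91), Mapkapk3 (-0.87 and 0.76) and Map1lc3b (-0.56 and 0.58). All 10 had an adjusted p of 0.852.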

How the data were processed

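The authors deposited whole-number counts of reads, with genes down and cells across. GSNAP and featureCounts (1.6.2) were used on mm10, per the submitters' processing notes, with Ensembl release 87 named in the title of the table. Strand and multi-mapping rules are not given in the sources used here. Poly(A) RNA was copied by template switching and amplified with 22 PCR cycles, per the labels' protocols. ERCC spike-ins held 11.7% of counts and stayed out of totals.

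Cells with at least 100000 counts and 1000 genes on Ensembl rows were kept, and CPM were computed from the deposited counts. Within each set, log2(CPM/10 + 1) of each gene was regressed on class, plate and genes detected. The 6 class coefficients, weighted by cell numbers, were tested in limma 3.58.1 (trend, Benjamini-Hochberg) over genes at 10 CPM in at least 10% of compared cells, without Procr. Counts summed per set and class were tested in edgeR 4.0.16 and DESeq2 1.42.0, where 753 adjusted p-values were NA. Shares of cells were tested by exact sign-flip permutation over sets. Symbols were found for 49326 of 49671 identifiers. The 23 gene lists (445 entries, all found) and the classes were chosen with earlier results of these cells known.

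The text names the 10 genes per direction with the smallest unadjusted p, since none passed, the pathway genes, the 3 members of each list with the largest difference, the markers, and 5 genes per direction for level and series. Predicted genes and pseudogenes were counted only, and some genes the rule takes are not reported here. The procedure was tested on simulated data of 9698 genes with 200 changed, with 1 false call. Alternatives covered thresholds, covariates, pseudocount, filters, scaling, thinning, weights, left-out sets, single series and count models. Each well held 1 sorted cell, and no doublet caller was run.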

Additional observations from a re-analysis of the deposited data

Results flagged for a closer look

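Of 82 groups of 6 set values examined, 7 had a set whose gap to the next value was, as a share of the whole range, above Dixon's 95% critical value. Chance alone gives about 1 in 20 such groups. For Tipin the difference was -0.37 in L29 HSC-3, with the other 5 sets between -1.72 and -1.21. For Ctsl it was -1.78 in L32 HSC-2, with the others between 0.64 and 1.54. For Smad7 it was 1.44 in L32 HSC-4, with the others between -0.02 and 0.52.

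The other 4 were in L29 HSC-4, the set with 9 Procr-detected cells. Gimap5 differed by 2.33 there and by -0.39 to 0.42 in the other sets, and Rel by 2.70 there and by 0.30 to 0.52 elsewhere. The difference of class medians in gene reads per spike-in read was 12.8 there and between -3.26 and 2.35 elsewhere. The difference in mitochondrial share was -3.21 percentage points there and between -0.58 and 0.72 elsewhere. The part of cell quality in these values was not tested.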

How the results depend on the processing

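The count of genes past an adjusted p of 0.05 was 0 in limma under each alternative run and 0 in each edgeR fit, but 39 with DESeq2. All 39 had the same sign in limma, and 26 had an unadjusted p under 0.05 there. With the set as replicate block in edgeR, 0 genes passed and 3.55% had an unadjusted p under 0.05, against 2.92% with no block. Both classes occur in each set, so the block compares them within a library series and HSC code, which the labels do not tie to a mouse. Over 65 named genes and up to 24 alternatives, 1530 of 1549 values kept direction and side of the threshold. Most of these genes were chosen by small p or large difference and none was near the adjusted threshold, so this count is no measure of stability. Of the remaining 19, 9 passed in DESeq2 only. Direction changed for Cd34 (0.29), Ndufv1 (0.23) and Junb (-0.11) in series 29 alone, Itgb1 in series 32 alone (0.016) and in edgeR without block (0.0098), Rac1 (-0.22) and Smad5 (0.018) in edgeR with genes detected, and H2-Ab1 in edgeR with (0.034) and without block (0.072) and in DESeq2 (0.031). Without L29 HSC-4 the Rel difference was 0.41, against 0.76. With each set left out, the Ly6a share difference ranged from -2.59 (without L29 HSC-4) to 12.5 points and that of Slamf1 from -0.22 (without L32 HSC-2) to 8.42. The causes were not tested. Leaving out each set in turn, the difference of medians ranged from -6600.7 to 24653.7 for total counts, -0.62 to 2.59 for gene reads per spike-in read and -0.74 to 0.040 points for mitochondrial share, the sign turning without L29 HSC-4 or, for total counts, also without L32 HSC-2. Depth limits the class itself: 0 reads at a median of 280096 counts does not show absence of Procr.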

Other observations

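Nfkb1 and Rel, genes of the NF-kappa-B family that no list covered and that were picked after their values were seen, had higher values in Procr-detected cells. Nfkb1, which encodes the p105 precursor of the p50 subunit, was present at 10 CPM or more in a mean of 59.3% of Procr-detected cells and 33.3% of Procr-negative cells over the sets. Its difference was 1.13 ± 0.85 on the log2(CPM/10 + 1) scale and positive in 6 of 6 sets (adjusted p = 0.619 in limma, 0.0267 in DESeq2). Rel, which encodes c-Rel, was present in a mean of 18.7% of Procr-detected cells and 3.85% of Procr-negative cells. Its difference was 0.76 ± 0.94, positive in 6 of 6 sets (adjusted p = 0.621 in limma, 3.81e-05 in DESeq2), and 0.41 without L29 HSC-4.

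Reads of the H2B-GFP transgene, which was not induced, were present in 13 of 129 Procr-detected cells and 6 of 97 Procr-negative cells, with at most 126 and 3 reads in a cell. They were also present in 6 of 38 near-empty wells.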
